A study of Homo sapiens with 6 samples.

Results

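Mucins are large glycoproteins whose long repeat domains, rich in serine and threonine, carry dense O-linked sugar chains. Gel-forming mucins are secreted and build the mucus layer, whereas transmembrane mucins stay anchored in the apical surface of epithelial cells, shield it and carry signals through their cytoplasmic tails. Pancreatic ductal adenocarcinoma (PDA) is known for altered expression of several of them. The 10 genes described here, MUC1, MUC2, MUC4, MUC5B, MUC6, MUC13, MUC15, MUC16, MUC17 and MUC20, were chosen by gene symbol from the 25442 genes of an RNA-seq table. By role, 3 are gel-forming (MUC2, MUC5B, MUC6) and 7 are transmembrane.

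RNA-seq was performed on YAPC cells, an established human PDA cell line. YAPC-iGLI2 cells carried a Dox-inducible pRetroX-Tight-Puro vector encoding human GLI2, a transcription factor of the Hedgehog pathway, with a Flag tag at its C-terminus, and YAPC-iEV cells carried the empty vector. Both groups received doxycycline (Dox) for 6 days, so the comparison is between constructs and not between treated and untreated cells, and there were 3 libraries per group. Neither the labels nor the methods say whether the libraries came from separate cultures or whether the lines were clones or pools, so the p-values measure only the spread between these libraries. The titles also carry codes that end in 1A, 1B and 2A for iEV replicates 1 to 3 and in 1A, 1B and 2B for iGLI2 replicates 1 to 3. Their meaning is not stated. GLI2 in the iGLI2 cells is expressed from a vector in a single cell line.

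Values are FPKM (fragments scaled for transcript length and library size), with totals of 981344 to 1082687 per iEV library and 803149 to 889559 per iGLI2 library. Read depth is unknown. GLI2 had 0.466, 0.412 and 0.344 FPKM across the iEV libraries (replicates 1 to 3) and 94.5, 207 and 195 FPKM across the iGLI2 libraries, as labelled. The epithelial markers EPCAM, CDH1, KRT7 and KRT19 were present in all 6 libraries, and the epithelial list of 6 genes had a summed level of 1890 to 2044 FPKM in iEV and 1728 to 2010 FPKM in iGLI2 cells. KRT8 and KRT18, keratins of simple epithelia, were listed at 0 in all 6. Both entries have the same locus (chr12:53290971-53346685), and this 0 was not read as absent expression. Summed markers of acinar, endocrine, fibroblast, immune and endothelial cells lay at or under 13.5 FPKM. Those of acinar cells (5 genes, with CPA1, PNLIP and AMY2A listed at 0) summed to between 5.32 and 13.5 FPKM in iEV and between 2.71 and 4.50 FPKM in iGLI2 cells, nearly all of it PRSS1. Those of fibroblasts (6 genes, with DCN listed at 0) summed to between 1.36 and 1.57 FPKM in iEV and between 2.31 and 3.02 FPKM in iGLI2 cells, nearly all of it COL1A1. The part of these in the results was not tested.

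The repeat domains are shown first, because reads from a repeated or duplicated sequence can be placed at several positions and FPKM depends on where they are placed. Each unit below is a single period, coding, from the exon with the most repeated sequence in GRCh37 (the assembly of hg19). Units are written 5′ to 3′ on the gene's strand with no base in capitals.
MUC20, 57 bases, chr3:195452019-195452075, plus strand, 10 exact copies: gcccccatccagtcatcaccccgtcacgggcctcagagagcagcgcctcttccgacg
MUC4, 48 bases, chr3:195514906-195514953, minus strand, 14 exact copies: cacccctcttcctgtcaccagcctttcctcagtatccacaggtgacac
MUC5B, 87 bases, chr11:1264419-1264505, plus strand, 5 exact copies: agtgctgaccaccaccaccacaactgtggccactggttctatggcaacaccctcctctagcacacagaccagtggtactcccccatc

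All windows of 50 bases lying within an exon of each gene were looked up in GRCh37. In MUC20, 71.0% of the windows occurred once in the genome and 29.0% also occurred outside the gene. The pseudogene MUC20P1 (chr3:195341818-195347104) holds 1533 positions that match such a window. The MUC20 exons searched (6837 bases) come from a gene model that ends at position 195467994. The entry that holds the MUC20 FPKM ends at 195460424, so these shares describe the model and not that entry. For MUC13, MUC15 and MUC16 the extents of model and entry also differ. In MUC4, 72.1% occurred once, 24.5% were repeated within the gene only and 3.42% were found elsewhere. In MUC5B, 67.9% occurred once and 32.1% were repeated within the gene only. For the other members, 91.3% of windows occurred once in MUC17, 97.9% in MUC6, 98.4% in MUC1, 99.2% in MUC16 and 100% in MUC2, MUC13 and MUC15. The search for repeat units covered a limited range of periods, so longer units would be missed. It found none in MUC1, MUC2, MUC6, MUC13, MUC15 or MUC16. In MUC17 it found a period of 177 bases, whose unit had 1 exact copy and is not shown. Only sequence present in GRCh37 was counted. Repeats that the assembly lacks or shortens would be missed, so these high shares do not show that reads are easy to place. How reads with several positions were handled is not given in the sources used here, nor is the use of strand. MUC20 overlaps the lncRNA MUC20-OT1 and MUC1 overlaps an unnamed protein-coding gene model, both on the same strand, MUC5B overlaps MUC5B-AS1 and MUC15 overlaps ANO3 on the opposite strand, so that reads of these pairs may be mixed.

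**Figure D1:**
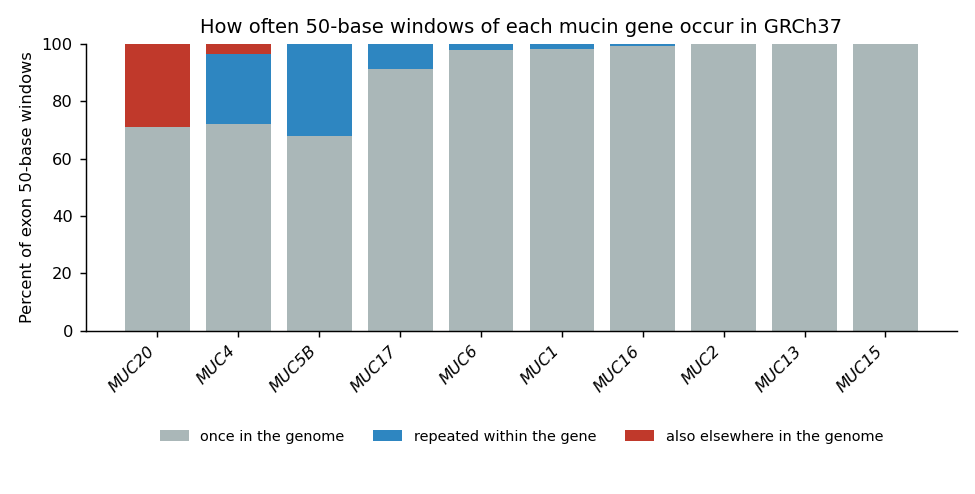
Stacked bars give, for each of the 10 mucin genes, the percent of 50-base exon windows that occur once in GRCh37 (grey), are repeated only within the gene (blue) or also occur elsewhere (red). MUC20 has the largest red share among the 10 (29.0%) and MUC5B the largest blue share (32.1%).

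The question of the comparison was which transcripts differ when GLI2 is induced in YAPC cells. Of the 10 mucin genes, 3 averaged 1 FPKM or more and were tested (MUC1, MUC4 and MUC20). Of these 3, 1 passed, MUC1, which fell 6.00-fold in mean FPKM. Over all genes the share called at an adjusted p under 0.05 was 21.9% (2742 of 12493), with 10.1% higher and 11.8% lower in iGLI2 cells. With 3 members tested, a count of 1 is not told apart from that share. Of all calls 46.0% were higher in iGLI2 cells, and 59.3% when small RNA genes were left out and the libraries rescaled. A fall of at least 4-fold on the log2(FPKM + 1) scale past that threshold was seen in 0.256% of the genes tested, MUC1 among them. The groups did not overlap, with iGLI2 cells lower, for 1 of the 3 members tested and for 22.8% of all genes tested. Of the other 7 members, MUC15 was listed at 0 in all 6 libraries and none of the rest exceeded 0.623 FPKM in any library.

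MUC1 encodes a transmembrane mucin of the apical surface of ductal epithelia. Its locus is chr1:155158300-155162706 (hg19). It had 24.1, 20.4 and 20.5 FPKM in iEV replicates 1 to 3, against 3.54, 3.38 and 3.93 FPKM in iGLI2 replicates 1 to 3. The iGLI2 libraries all lay far below the iEV libraries, and the values within each group were close together. Mean expression fell from 21.7 ± 2.08 to 3.61 ± 0.283 FPKM (SD, n = 3 each), 6.00 times lower. On the log2(FPKM + 1) scale the difference was -2.29 (SE 0.088, 95% interval -2.51 to -2.08, limma adjusted p = 0.000131). That decrease ranked 58 of the 12493 genes tested. By level, the MUC1 mean was above 67.3% of the tested genes' means in iEV cells and above 20.7% of them in iGLI2 cells. In bulk RNA, fewer cells that express MUC1 and less MUC1 RNA per cell cannot be told apart.

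The MUC1 promoter is shown because MUC1 was the member called, from 250 bases before the start to 50 after it (RefSeq, GRCh38.p14, chr1:155192866-155193165, minus strand). Capitals mark a best match to GACCACCCA, the GLI consensus, here on the reverse strand with 7 of 9 bases. Both strands were searched, and only the first of equal matches was marked. The unmarked stretches cgggtagtc and tggggggac, both nearer the start, also match 7 of 9 bases on the reverse strand.
MUC1 promoter: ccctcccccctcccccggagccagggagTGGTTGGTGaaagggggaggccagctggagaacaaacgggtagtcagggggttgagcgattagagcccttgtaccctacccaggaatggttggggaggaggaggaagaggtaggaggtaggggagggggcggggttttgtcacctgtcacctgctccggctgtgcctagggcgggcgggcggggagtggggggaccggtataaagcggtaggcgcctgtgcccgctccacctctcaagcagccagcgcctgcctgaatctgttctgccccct
A match of at least 7 of 9 bases is present in 57.8% of 35116 promoters of the same length. RefSeq promoters were matched for 6 of the 10 members, and the best matches had 8 bases in MUC4, 7 in MUC1 and MUC2, and 6 in MUC13, MUC16 and MUC17. At least 8 bases were matched in 6.74% of all promoters and all 9 in 0.236%. These are matches of letters in a short window, and no binding was measured.

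MUC20, a transmembrane mucin described in kidney and other epithelia, gave the least certain values. At chr3:195447753-195460424 it was listed at 76.6, 91.1 and 0 FPKM across the iEV libraries (replicates 1 to 3) and 28.9, 37.6 and 42.4 FPKM across the iGLI2 libraries. The 0 lies apart from the other iEV libraries, which were both above every iGLI2 library. With all 6 libraries the difference was 0.94 on the log2(FPKM + 1) scale with an SE of 1.75 and a 95% interval of -3.34 to 5.22 (limma adjusted p = 0.741). Without iEV replicate 3 it turned to -1.20 (SE 0.187, limma adjusted p = 0.0246), where 10.4% of all genes were called. The same -1.20 was obtained when the 0 was treated as missing (SE 0.184, limma adjusted p = 0.0122, with 22.0% of all genes called), which leaves 2 iEV libraries with a mean of 83.8 FPKM against 36.3 ± 6.83 FPKM (SD, n = 3) in iGLI2 cells, 2.31 times lower. A 0 of this kind was not particular to MUC20. Among the genes tested, 16 had a listed 0 beside a value of 5 FPKM or more from the same group (14 without the small RNA genes SNAR-E and SNAR-G2, other small RNA genes not counted). HSPD1 and H3F3A, which cells in general express, were among them. Neither direction of MUC20 is therefore called here.

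MUC4, a transmembrane mucin that can associate with the receptor ERBB2, is the neighbour of MUC20 (chr3:195473638-195538844). It had 1.47, 1.79 and 2.43 FPKM in iEV replicates 1 to 3, against 0.868, 1.75 and 1.65 FPKM in iGLI2 replicates 1 to 3. These groups overlap. Mean levels were 1.90 ± 0.489 (iEV) and 1.42 ± 0.483 FPKM (iGLI2, SD, n = 3 each). The difference of -0.27 on the log2(FPKM + 1) scale did not pass the test (SE 0.198, limma adjusted p = 0.393). Its 95% interval, -0.75 to 0.22, leaves room for a decrease of moderate size and for a small increase.

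**Figure D2:**
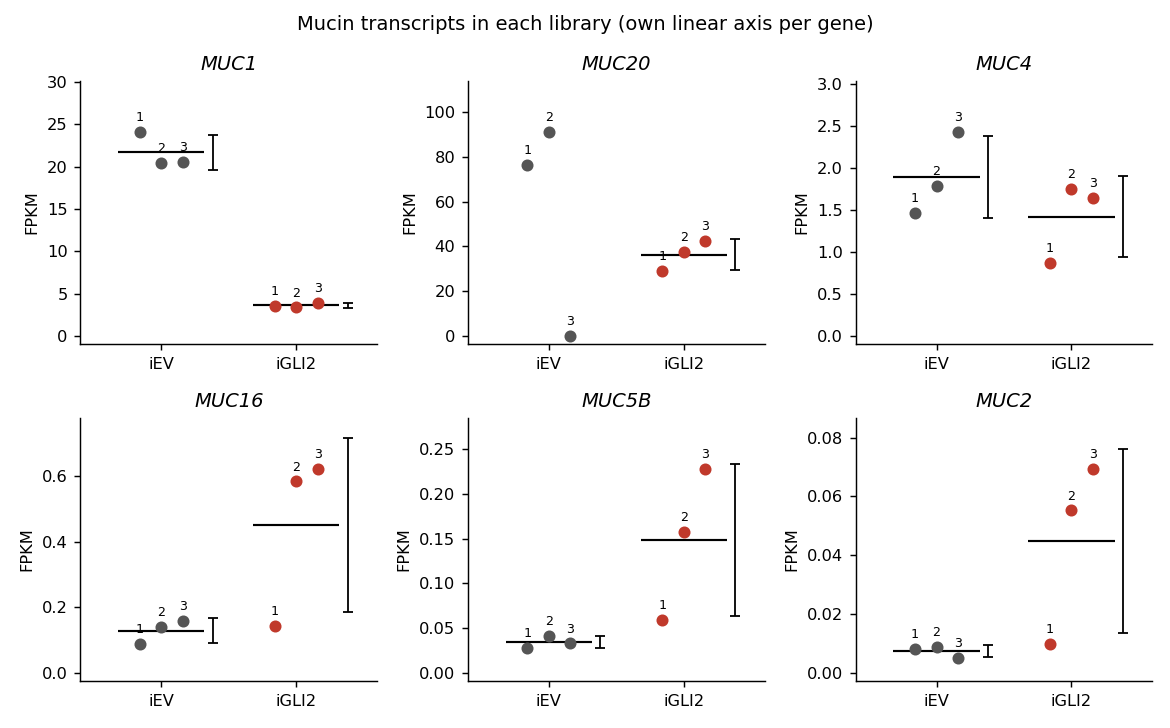
Each panel shows FPKM of a mucin gene on its own linear axis, with a point per library numbered by replicate, a line at the group mean and a bar of ± SD (n = 3), both left out for MUC20 in iEV cells because of the listed 0. MUC1 separates the groups, MUC4 does not, and iGLI2 replicate 1 is the lowest iGLI2 library in all panels except MUC1.

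**Figure D3:**
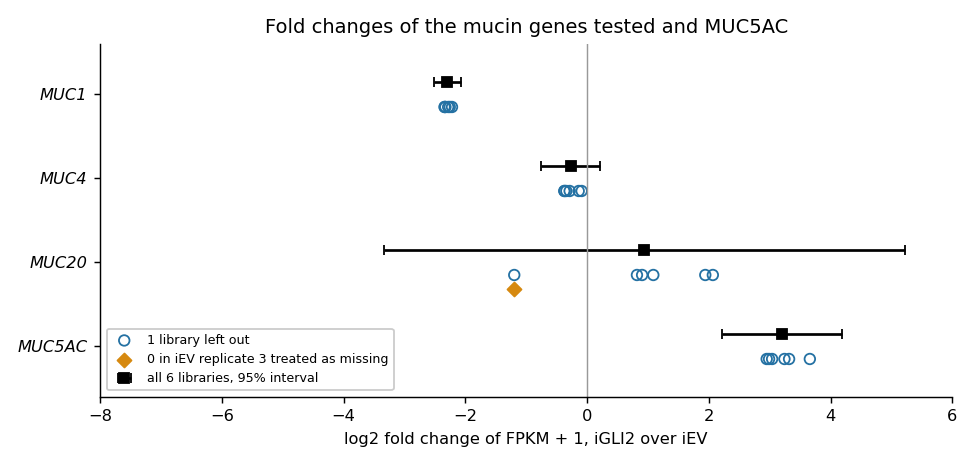
Squares give the log2 fold change of FPKM + 1, iGLI2 over iEV, with 95% intervals for the 3 mucin genes tested and MUC5AC. Open circles leave out a library each and the diamond treats the 0 of MUC20 as missing. MUC1 stays between -2.34 and -2.22, whereas MUC20 crosses 0 from -1.20 to 2.07.

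Of the remaining transmembrane members, MUC13, MUC16 and MUC17 had low values. MUC15 was listed at 0 in all 6 libraries under an entry that spans the ANO3 locus (chr11:26353678-26684836), and this 0 was not read as low expression. MUC16, which carries the CA125 antigen, had 0.0868, 0.140 and 0.159 FPKM across the iEV libraries (replicates 1 to 3) and 0.144, 0.585 and 0.623 FPKM across the iGLI2 libraries. The iGLI2 replicates 2 and 3 were above every iEV library and replicate 1 was within their range. When every gene with a value was tested, without a filter on low values (15.1% of 20035 genes called), MUC16 had a limma adjusted p of 0.171. MUC13, a mucin of the intestinal surface, was listed at 0.0255, 0.0138 and 0 FPKM in iEV replicates 1 to 3, against 0.00976, 0 and 0 FPKM in iGLI2 replicates 1 to 3. MUC17, another intestinal surface mucin, was listed at 0 in the 3 iEV libraries and at 0.00191, 0.00225 and 0 FPKM in the iGLI2 libraries. No difference can be read from values this low.

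The gel-forming members MUC2, MUC5B and MUC6 lie together on the short arm of chromosome 11 and were all under 0.25 FPKM. MUC5B, a main gel former of airway mucus (chr11:1244295-1283406), had 0.0281, 0.0411 and 0.0328 FPKM across the iEV libraries (replicates 1 to 3) and 0.0595, 0.158 and 0.228 FPKM across the iGLI2 libraries. MUC2, the main gel former of the intestine (chr11:1074875-1104416), had 0.00802, 0.00886 and 0.00501 FPKM in iEV replicates 1 to 3, against 0.00973, 0.0552 and 0.0694 FPKM in iGLI2 replicates 1 to 3. For these 2 of the 7 members below the filter, all iGLI2 libraries were above all iEV libraries, although replicate 1 was only just above them for MUC2. Among the 7542 genes with a mean above 0 and under 1 FPKM, 12.0% had groups that did not overlap with iGLI2 cells higher. Tested without the filter, the limma adjusted p was 0.133 for MUC5B and 0.218 for MUC2, so neither passed. MUC6, a gel former of gastric glands (chr11:1012824-1036706), was listed at 0, 0.0392 and 0.0391 FPKM across the iEV libraries (replicates 1 to 3) and 0, 0.0455 and 0.0297 FPKM across the iGLI2 libraries. Its groups overlap.

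MUC5AC, a gel former of gastric and airway surfaces, lies between MUC2 and MUC5B (chr11:1151580-1222366) and was on the list of other genes named as mucins. It had 2.59, 3.75 and 4.28 FPKM in iEV replicates 1 to 3, against 20.8, 57.2 and 54.1 FPKM in iGLI2 replicates 1 to 3. Every iGLI2 library was well above every iEV library, and the log2 fold change of FPKM + 1 was 3.20 (SE 0.402, limma adjusted p = 0.00387). The level of MUC5AC was 0.107, 0.184 and 0.208 times that of MUC1 in the iEV libraries, and 5.88, 16.9 and 13.8 times that of MUC1 in the iGLI2 libraries. MUC1 was thus above MUC5AC in each iEV library and below it in each iGLI2 library. The size of the ratio depends on the transcript lengths used, and the gene annotation is not given in the sources used here. Among the 10 members without MUC20, MUC1 made up 93.7%, 90.9% and 88.5% of the summed FPKM in iEV replicates 1, 2 and 3. Its share was 76.4%, 56.5% and 60.2% in iGLI2 replicates 1, 2 and 3. With MUC5AC added to that sum, the MUC1 share was 85.1%, 77.9% and 74.7% in iEV replicates 1 to 3. In iGLI2 replicates 1 to 3 it was then 13.9%, 5.35% and 6.47%. The MUC20 values left out of these sums were above those of MUC1 in every library except iEV replicate 3.

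**Figure D4:**
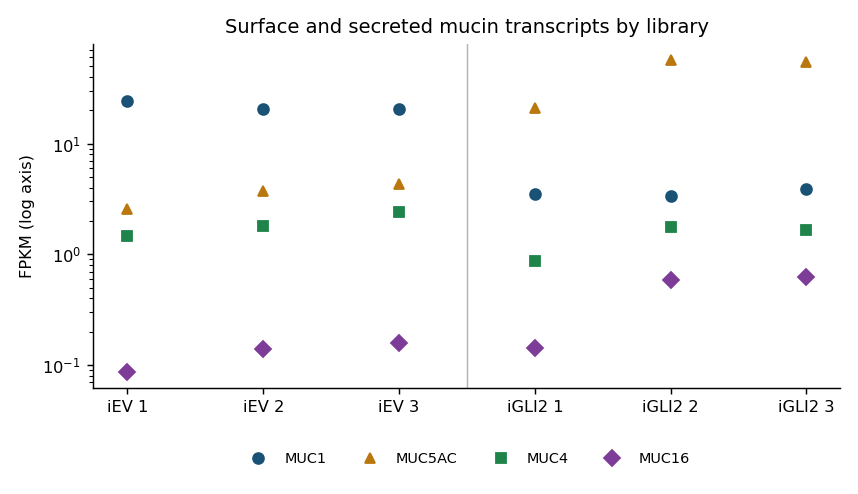
FPKM on a log axis of MUC1 (circles), MUC5AC (triangles), MUC4 (squares) and MUC16 (diamonds) in each of the 6 libraries. MUC1 is above MUC5AC in iEV 1 to 3 and below it in iGLI2 1 to 3, and MUC16 stays under 0.63 FPKM throughout.

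Among the iGLI2 libraries, replicate 1 had the lowest value for 6 of the 10 members (MUC2, MUC4, MUC5B, MUC6, MUC16 and MUC20), as well as for MUC5AC and for GLI2. In iGLI2 replicate 1, the FPKM relative to the mean of replicates 2 and 3 was 0.470 for GLI2, 0.156 for MUC2, 0.238 for MUC16, 0.308 for MUC5B, 0.511 for MUC4, 0.723 for MUC20 and 0.373 for MUC5AC. For MUC1 it was 0.968. For 4 members, MUC4, MUC5B, MUC6 and MUC16, and for MUC5AC, replicate 1 was also the lowest of the iEV libraries. The part of the lower GLI2 level of iGLI2 replicate 1 in these values was not tested.

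Of the 14 other genes named as mucins or sialomucins, 12 were in the table and 4 were tested, of which 1 rose (MUC5AC) and 2 fell. That is 75% called, beside 21.9% over all genes tested, and it rests on 4 genes. OVGP1, an oviductal glycoprotein of this family, fell from 2.25 ± 0.126 to 0.606 ± 0.00643 FPKM (SD, n = 3 each, limma adjusted p = 0.000937). MCAM, an adhesion molecule also known as MUC18, fell from 2.98 ± 0.195 to 1.66 ± 0.125 FPKM (SD, n = 3 each, limma adjusted p = 0.00531). The sialomucin CD164 had 161 ± 25.3 FPKM (iEV) and 179 ± 34.8 FPKM (iGLI2, SD, n = 3 each) and did not pass (limma adjusted p = 0.587). The median log2 fold change of the 4 was -0.22, beside -0.01 over all genes tested. Over the 3 members tested the median was -0.27, and -1.20 with the 0 of MUC20 treated as missing or without iEV replicate 3.

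Mucin sugar chains are begun by the GALNT enzymes, extended into core structures and often capped with sialic acid. Of 30 genes of this pathway 22 were tested, and 5 rose and 3 fell (36.4% called, beside 21.9% over all genes tested), with a median log2 fold change of 0.04. ST6GALNAC3, a sialyltransferase under the filter, had means of 0.0564 ± 0.0390 and 0.849 ± 0.332 FPKM in iEV and iGLI2 cells (SD, n = 3 each) and passed when tested without it (limma adjusted p = 0.0147). Among the GALNT genes, 2 of 12 tested rose and 3 fell, beside 10.1% and 11.8% of all genes tested. One of the 2 that rose, GALNT4, shares a merged entry with POC1B and cannot be separated from it. GALNT10 fell from 56.3 ± 1.17 to 26.3 ± 2.07 FPKM (SD, n = 3 each, limma adjusted p = 0.000554). GALNT6 fell from 24.8 ± 1.14 to 14.8 ± 0.359 FPKM (SD, n = 3 each, limma adjusted p = 0.000968). Among genes that extend the chain, 1 of 5 rose, beside 10.1% of all genes tested. This was B3GNT6, which makes the core 3 structure, with 2.62, 3.16 and 3.16 FPKM across the iEV libraries (replicates 1 to 3) and 11.8, 24.3 and 26.8 FPKM across the iGLI2 libraries (limma adjusted p = 0.00373). C1GALT1, which makes core 1, had 13.0 ± 1.68 and 12.2 ± 1.44 FPKM (SD, n = 3 each) and did not pass (limma adjusted p = 0.676). Of the 5 sialyltransferases tested 2 rose, beside 10.1% of all genes tested. ST3GAL1, which caps core 1 chains, had 12.9, 9.24 and 9.25 FPKM in iEV replicates 1 to 3, against 38.6, 40.2 and 37.4 FPKM in iGLI2 replicates 1 to 3 (limma adjusted p = 0.000693). The other was ST6GALNAC2, which rose from 1.24 ± 0.208 to 4.55 ± 1.28 FPKM (SD, n = 3 each, limma adjusted p = 0.00732).

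Of 26 genes for factors secreted with mucins, for mucin folding and export, and for transcription factors of mucous cells, 17 were tested, and 1 rose and 3 fell (23.5% called, beside 21.9% over all genes), with a median log2 fold change of -0.18. None of the 7 folding and export genes passed, among them AGR2, a protein disulfide isomerase needed for mucin folding, with 826 ± 43.6 and 847 ± 52.6 FPKM (SD, n = 3 each, limma adjusted p = 0.767). Of the 6 transcription factors tested 3 passed, beside 21.9% of all genes tested. FOXA1, a forkhead factor of endodermal epithelia, rose from 0.360 ± 0.0721 to 1.93 ± 0.158 FPKM (SD, n = 3 each, limma adjusted p = 0.00124). GATA6, a factor of foregut epithelia, fell from 4.95 ± 0.649 to 0.830 ± 0.137 FPKM (SD, n = 3 each, limma adjusted p = 0.000504). ELF3, an epithelial ETS factor, fell from 85.0 ± 0.0798 to 59.4 ± 3.70 FPKM (SD, n = 3 each, limma adjusted p = 0.00391). Below the filter, 2 of 8 genes of this list with a value passed when tested without it, beside 15.1% of all genes in that fit. SPDEF, an ETS factor of mucous cells, had 0.175, 0.262 and 0.152 FPKM in the iEV and 0.830, 1.28 and 1.44 FPKM in the iGLI2 libraries (limma adjusted p = 0.00738), and ZG16, a lectin of intestinal mucus, had means of 0.417 and 0.183 FPKM (limma adjusted p = 0.0132). The remaining call was ZG16B, a secreted lectin, which fell from 34.8 ± 0.718 to 22.1 ± 0.262 FPKM (SD, n = 3 each, limma adjusted p = 0.000925).

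Of 14 genes for partners and sheddases of transmembrane mucins 13 were tested, and 2 rose and 3 fell (38.5% called, beside 21.9% over all genes), with a median log2 fold change of -0.07. LGALS3, a galectin that binds mucin sugars, fell from 725 ± 41.0 to 495 ± 21.2 FPKM (SD, n = 3 each, limma adjusted p = 0.00417). SRC, a kinase that acts on the MUC1 tail, fell from 25.8 ± 2.27 to 16.1 ± 1.31 FPKM (SD, n = 3 each, limma adjusted p = 0.00587). MMP14, a membrane protease, rose from 20.0 ± 1.32 to 27.5 ± 1.85 FPKM (SD, n = 3 each, limma adjusted p = 0.0133). CTNNB1, which encodes β-catenin, rose from 114 ± 3.40 to 139 ± 2.72 FPKM (SD, n = 3 each, limma adjusted p = 0.0180). The last 2 calls were lost when some libraries were left out, for MMP14 with an adjusted p of up to 0.0605 and for CTNNB1 of up to 0.0744 (limma). The receptors EGFR, ERBB2 and ERBB3 did not pass, with adjusted p values of 0.524, 0.973 and 0.992 (limma).

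**Figure D5:**
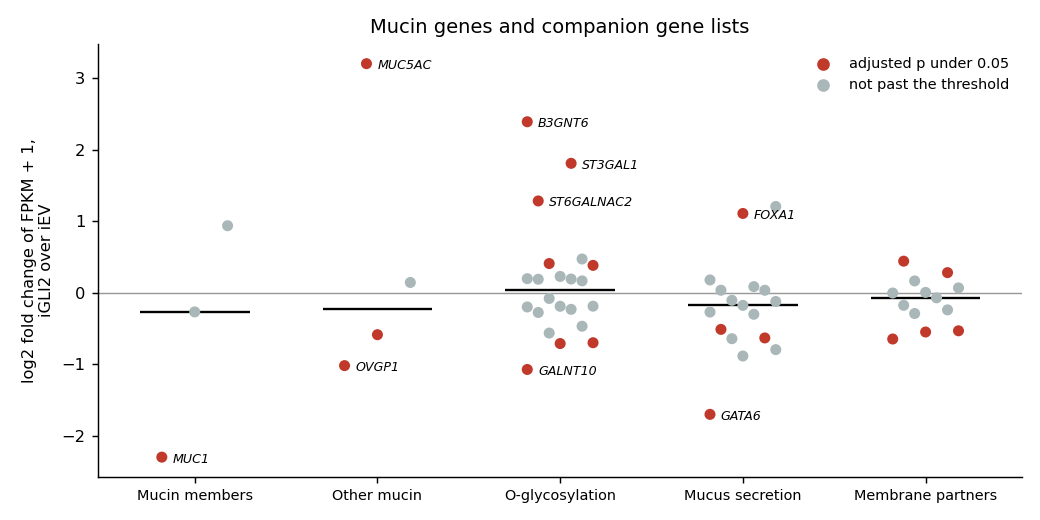
Log2 fold change of FPKM + 1, iGLI2 over iEV, of each tested gene in the mucin members (3 genes) and 4 companion lists (4, 22, 17 and 13 genes). Red points passed an adjusted p under 0.05, grey points did not, black lines are medians, and called genes beyond 1 in either direction are named. The medians lie between -0.27 and 0.04 with the listed 0 of MUC20 included, without which the members' median is -1.20, and the called genes lie on both sides of 0 in each list except the members.

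The genes whose profile over the 6 libraries was most like that of MUC1 were ranked by the root mean square difference of log2(FPKM + 1) after centring each gene on its own mean. The 5 nearest were RNASE1 (0.139), HOPX (0.155), GNG4 (0.203), ANKRD1 (0.214) and SFTPA2 (0.215). RNASE1, the pancreatic-type secreted ribonuclease, had 638, 531 and 477 FPKM across the iEV libraries (replicates 1 to 3) and 133, 125 and 130 FPKM across the iGLI2 libraries. HOPX, a small homeodomain protein, had 4.20, 3.55 and 3.64 FPKM in iEV replicates 1 to 3, against 0.219, 0.175 and 0.187 FPKM in iGLI2 replicates 1 to 3. SFTPA2, a surfactant protein, has a near-identical paralog, SFTPA1, with which its reads may be mixed. The measure was taken over 6 libraries in 2 groups, so the difference between the groups makes up most of each profile.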

How the data were processed

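Total RNA of 6 YAPC libraries (3 iEV, 3 iGLI2) was sequenced by the authors after TruSeq library preparation. Per the labels and the study's methods, reads were trimmed with Trimmomatic, aligned to hg19 with TopHat2 and processed with Cuffdiff 2.1.1. The authors deposited 1 value per gene and library with no unit named, read here as FPKM from the form of the values. Depth, annotation, scaling and the handling of multi-mapping reads are not given in the sources used here. Starts of loci were counted from 0 and 1 was added. All columns were matched to samples by title.

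Of 27024 entries, 1252 off the primary chromosomes and 330 with a repeated name were left out. Genes averaging 1 FPKM or more (12493) entered limma 3.58.1 (R 4.3.3) on log2(FPKM + 1), two-sided, with group as the only term, an intensity trend and Benjamini-Hochberg adjustment (threshold 0.05). Fold changes on this scale understate those of low genes. An exact permutation test of 3 against 3 libraries cannot go below 0.1. The fit was tested on simulated data. Windows of 50 bases were counted in GRCh37 with GENCODE exons, and tables and plots were made in Python with numba and matplotlib.

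The members and gene lists were chosen with earlier results of these data known, so no list was tested. Genes named are all members, GLI2, up to 4 tested genes of each list with the smallest p, and the 5 genes most like the called member that changed most; others (ST6GALNAC2, ST6GALNAC3, C1GALT1, SPDEF, ZG16, AGR2, EGFR, ERBB2, ERBB3, GALNT4, the markers, genes with single zeros and neighbours) were chosen after their values were seen. Alternatives were 3 other scalings, a pseudocount of 0.1, no filter, a mean of at least 5 FPKM, no trend, a replicate block, a 2-fold requirement and each library left out. Treating single zeros as missing and a block on the number in the sample code were added after seeing the data.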

Additional observations from a re-analysis of the deposited data

How the results depend on the processing

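The number of genes called was 2742 of 12493, lay between 1223 (without iEV replicate 2) and 3753 (without iGLI2 replicate 1) when a library was left out (1303 without iEV replicate 3, 1357 and 1510 without iGLI2 replicates 2 and 3), and was 527 with a 2-fold requirement. Without small RNA genes and with libraries rescaled, 59.3% of calls were higher in iGLI2 cells, beside 46.0% in the reported fit. The number of mucin genes called was 1 (MUC1) and was 1 to 2 with a library left out. It was 2 with single zeros treated as missing, as MUC20 was then called. MUC1 was called with the same direction in all 16 alternatives, with log2 fold changes from -2.55 to -2.22 and limma adjusted p from 3.43e-05 to 0.00242. MUC4 was not called in any of 15 (adjusted p 0.148 to 0.709). The log2 fold change of MUC20 reversed from 0.94 to -1.20 without iEV replicate 3 and with its 0 treated as missing, was 2.02 with a pseudocount of 0.1, and lay between -1.20 and 2.07 with a library left out. That of CD164 turned to -0.0087 without iGLI2 replicate 1 and reached 0.27 without iEV replicate 1, and the cause was not tested. Of 37 genes run through the alternatives, 25 kept their direction and side of the threshold in all of them. The calls of MMP14, CTNNB1, AP2A2, EFNA1 and SLC50A1 were lost in some, and THBS3 passed in some. Values near 0 changed sign for 4 uncalled genes. With a library left out, the log2 fold change lay between -0.17 and 0.014 for C1GALT1, -0.012 and 0.078 for AGR2, -0.042 and 0.092 for ERBB2, and -0.13 and 0.090 for ERBB3. That of ERBB3 was also 0.011 with upper quartile scaling, 0.070 without small RNA genes and 0.0018 with quantile normalization. Depth could not be assessed from FPKM.

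Libraries of the 2 groups share replicate numbers, which are not stated to pair samples, so the reported fit had no block. The correlations of same-numbered deviations from the group means were all above 0 (0.204, 0.0919 and 0.0276). Those of differently numbered libraries were below 0, down to -0.19 for iEV replicate 2 with iGLI2 replicate 1. The exception was iEV replicate 2 with iGLI2 replicate 3 (0.117). Whether same-numbered libraries were handled together was not tested. With the replicate block 3928 genes were called, beside 2742 without it, and the mucin gene called was again MUC1 only (1 of 3). With the number in the sample code (1 or 2) as a block, added after seeing the data, 2084 genes were called, and of the mucin genes again MUC1.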

Other observations

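The loci around the mucin genes were looked at by position, as values with no explanation. Over all genes tested, 11.8% were called lower and 10.1% higher in iGLI2 cells. At the mucin cluster on chromosome 11, where MUC5AC rose, both flanking genes tested fell in iGLI2 cells. AP2A2, which encodes an adaptor subunit of endocytosis and lies next to MUC6, changed from a mean of 13.6 to 8.58 FPKM (limma adjusted p = 0.0166). TOLLIP, an inhibitor of Toll-like receptor signalling that lies next to MUC5B, changed from 27.5 to 16.9 FPKM (limma adjusted p = 0.00290). Around MUC1, 2 of 11 neighbours tested fell and 0 rose, EFNA1, an ephrin ligand, from 9.64 to 6.29 FPKM (limma adjusted p = 0.0147) and SLC50A1, a sugar transporter, from 88.5 to 76.1 FPKM (limma adjusted p = 0.0446). THBS3, a thrombospondin next to MUC1, had 3.88 and 6.27 FPKM with groups that did not overlap, and missed the threshold (limma adjusted p = 0.05003), with adjusted p from 0.0145 to 0.154 over the alternatives. The calls of AP2A2, EFNA1 and SLC50A1 were lost when some libraries were left out, with adjusted p of up to 0.0756, 0.0697 and 0.159 (limma), and that of SLC50A1 also under other settings. Around MUC20 and MUC4, 0 of 5 entries tested passed in limma, of which TNK2 had the smallest adjusted p (0.0840). Among these 5, the microRNA entries MIR570 and MIR6829 had a value in iEV replicate 1 only (24.1 and 155 FPKM), so they say little.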
